A study of Mus musculus with 12 samples.

Results

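Tnfsf11, Tnfrsf11b, Csf1 and Il34 encode 4 signals by which cells of the osteoblast lineage act on osteoclasts. They were chosen by gene name, with no threshold on a measured value, and each matched 1 of the 37583 gene IDs counted. All 4 passed the filter on low counts, which left 14904 genes for testing.

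Osteoclasts, the cells that resorb bone, form from myeloid precursors under the influence of RANKL, the product of Tnfsf11, which binds the receptor RANK on the precursor. Osteoprotegerin (OPG), the product of Tnfrsf11b, is a secreted decoy receptor that binds RANKL and keeps it from RANK, so that the balance between RANKL and OPG is a common readout of the osteoclast-supporting capacity of a cell. M-CSF (Csf1) and IL-34 (Il34) are alternative ligands of the receptor CSF1R, on which the survival and proliferation of the precursors depend, and osteocytes are a major source of RANKL in adult bone.

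RNA-seq was performed on Ocy454, a mouse osteocyte line from long bone that was used as a single-cell sub-clone and carries a temperature-sensitive T antigen, which is switched off by warming so that the cells differentiate. The genotypes were control, labelled as original cells, and DKO, labelled as lacking HDAC4 and HDAC5, class IIa histone deacetylases that repress transcription in the nucleus. The cells of each genotype were left without flow (static) or received 3 h of fluid flow shear stress (FFSS), with 3 replicates in each of the 4 groups. Per the study's methods, genes were deleted in Ocy454 cells with Cas9 and guides delivered by lentivirus, and control cells received the guide vector without a guide, whereas whether the DKO cells were a bulk population or 1 clone is not given in the sources used here. All control libraries came from 1 line and all DKO libraries from another, so the deletion and other differences between the lines cannot be told apart. Nothing in the labels places the replicates in separate cultures, and p-values therefore measure the spread between these libraries, which may be technical.

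Reads assigned to genes totalled 17585225 to 19174118 per library. In the libraries labelled DKO, transcripts of the deleted genes were reduced and not absent under static conditions, with 1461 to 1634 counts of Hdac5 against 2421 to 2706 in control cells and 220 to 309 counts of the longer Hdac4 gene model against 458 to 550. Under FFSS Hdac5 was not lower in the libraries labelled DKO, all 3 of which (92.4 to 93.3 CPM, counts relative to the scaled library total) lay above the 3 control libraries (71.1 to 90.2 CPM), with a log2 fold change of 0.19 (edgeR adjusted p = 0.0512, SE 0.08). The longer Hdac4 model was called lower there, at −1.48 (edgeR adjusted p = 5.65e-07, SE 0.14), with 214 to 250 against 597 to 860 counts. DKO therefore stands throughout for the libraries labelled so, and a read count does not tell whether a transcript encodes a whole protein. The osteocyte marker Sost had 28 to 236 counts in control static libraries, Mepe had 0 to 4 and Fgf23 0 to 1, while Dmp1 had 444 to 714, so the labelled cell type rested in control cells on few of its late markers. In DKO static libraries Sost had 36753 to 38134 counts, Mepe 289 to 337 and Fgf23 0. The 3 control FFSS libraries were uneven. The share of reads outside annotated genes was 5.87%, 9.19% and 10.04% in replicates 1, 2 and 3, against 5.10% to 5.21% in control static, 7.07% to 7.14% in DKO static and 7.93% to 8.55% in DKO FFSS libraries. Results on control FFSS cells are therefore also given without replicate 1 where that changes them.

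The promoters of Tnfsf11 and Csf1 are shown because these were the members for which a window was given. Both genes were called higher in DKO cells under static conditions. The windows hold the 250 bases before the start site in RefSeq (GRCm38.p6), at chr14:78308044-78308293 for Tnfsf11 and chr3:107760470-107760719 for Csf1, and are written 5′ to 3′ on the minus strand, which both genes use. Windows were given for 2 of the 4 genes. Capitals mark the reverse complement of a TATA box (TATAAA).
Tnfsf11: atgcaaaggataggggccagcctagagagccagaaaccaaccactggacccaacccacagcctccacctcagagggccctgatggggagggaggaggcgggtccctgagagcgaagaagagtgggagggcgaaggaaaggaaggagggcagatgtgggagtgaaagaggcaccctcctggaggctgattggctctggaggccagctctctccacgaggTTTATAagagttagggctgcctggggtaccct
Csf1: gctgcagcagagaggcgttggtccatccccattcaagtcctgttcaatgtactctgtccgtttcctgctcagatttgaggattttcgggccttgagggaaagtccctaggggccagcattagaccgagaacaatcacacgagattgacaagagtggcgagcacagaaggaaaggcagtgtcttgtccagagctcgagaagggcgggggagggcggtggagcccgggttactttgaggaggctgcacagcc
The Tnfsf11 window had 60.4% GC and the Csf1 window 56.4%. They were searched on both strands for the MEF2 consensus, the RUNX motif TGTGGT, the cAMP response element TGACGTCA and its shorter form TGACG, which lies within it, and TATAAA. The Tnfsf11 window held 1 match, TATAAA on the opposite strand, 32 to 27 bases before the start, and the Csf1 window held 0. Of 32851 windows of this length, 12.4% held TATAAA, 17.8% TGACG, 14.1% TGTGGT, 2.92% the MEF2 consensus and 1.55% TGACGTCA on either strand. A missing match says only that these letters were not in the window.

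Tnfsf11, which encodes RANKL (ENSMUSG00000022015, mm9 chromosome 14, 78677252 to 78707850, minus strand), was scarce in control static cells, was raised by FFSS in control cells, and was higher still in DKO cells whether or not they were exposed to FFSS. Static control replicates 1, 2 and 3 gave 20, 16 and 21 reads, and FFSS control replicates gave 72, 63 and 69. For DKO cells the read counts were 254, 243 and 236 when static and 253, 280 and 201 after FFSS. The control static, control FFSS and DKO libraries formed 3 levels that did not overlap, whereas the static and FFSS libraries of DKO cells did. In CPM, the gene's share of the TMM-adjusted library total, the means were 0.999 ± 0.145, 3.40 ± 0.312, 13.5 ± 0.446 and 14.0 ± 2.71 in these groups (SD, n = 3 each). The control static counts were above the floor of 3 counts, below which a gene cannot be told from absent, but were low enough for counting error to matter.

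To determine whether FFSS changes the members in cells with both deacetylases, control FFSS and control static libraries were compared. A gene was called at an edgeR quasi-likelihood adjusted p (Benjamini-Hochberg over all genes tested) under 0.05 if it also differed over 2-fold. Of all genes 5.93% were called, 3.96% as higher and 1.97% as lower. The count called was 884, and 497 to 1683 with 1 library left out, highest without control FFSS replicate 1. Tnfsf11 and Csf1 were called higher, and 0 of the 4 were called lower. Tnfsf11 rose 3.38-fold (log2 fold change 1.76, edgeR adjusted p = 4.83e-05, SE 0.20), and over 22 alternative analyses it stayed called at log2 fold changes of 1.64 to 1.98. In DKO cells 0.0872% of genes were called, 0.0134% as higher and 0.0738% as lower, and 0.872% passed the limit on p alone, and of the 4 members 0 did either by edgeR (0 at an unadjusted p under 0.05, and 0 called by DESeq2 or limma-voom). Tnfsf11 differed there by a log2 fold change of 0.05 between FFSS and static (edgeR adjusted p = 0.930, SE 0.13).

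The difference between the genotypes in the FFSS response was tested as an interaction, the effect in DKO minus that in control cells. For it 0.651% of genes were called, 0.376% with a higher and 0.275% with a lower effect in DKO, and 3.97% passed on p alone. The count called was 97, and 41 to 1133 with 1 library left out, highest without control FFSS replicate 1. Tnfsf11 was the 1 member called, at a log2 difference of −1.71 (edgeR adjusted p = 0.00236, SE 0.24), and it stayed called in all 21 alternatives. Between genotypes under static conditions 15.3% of genes were called, 7.98% as higher and 7.3% as lower in DKO (54.2% on p alone), and Tnfsf11 and Csf1 were among the higher. Static DKO cells had 13.4-fold more Tnfsf11 than static control cells (log2 fold change 3.75, edgeR adjusted p = 1.2e-09, SE 0.18). Under FFSS 17.2% of genes were called between genotypes, 8.25% as higher and 8.96% as lower in DKO (56.6% on p alone), and of the 4 members Tnfsf11 alone, at 4.10-fold (log2 fold change 2.04, edgeR adjusted p = 5.58e-08, SE 0.15). The 2 FFSS and the 2 genotype comparisons share groups and are not independent of each other.

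**Figure D1:**
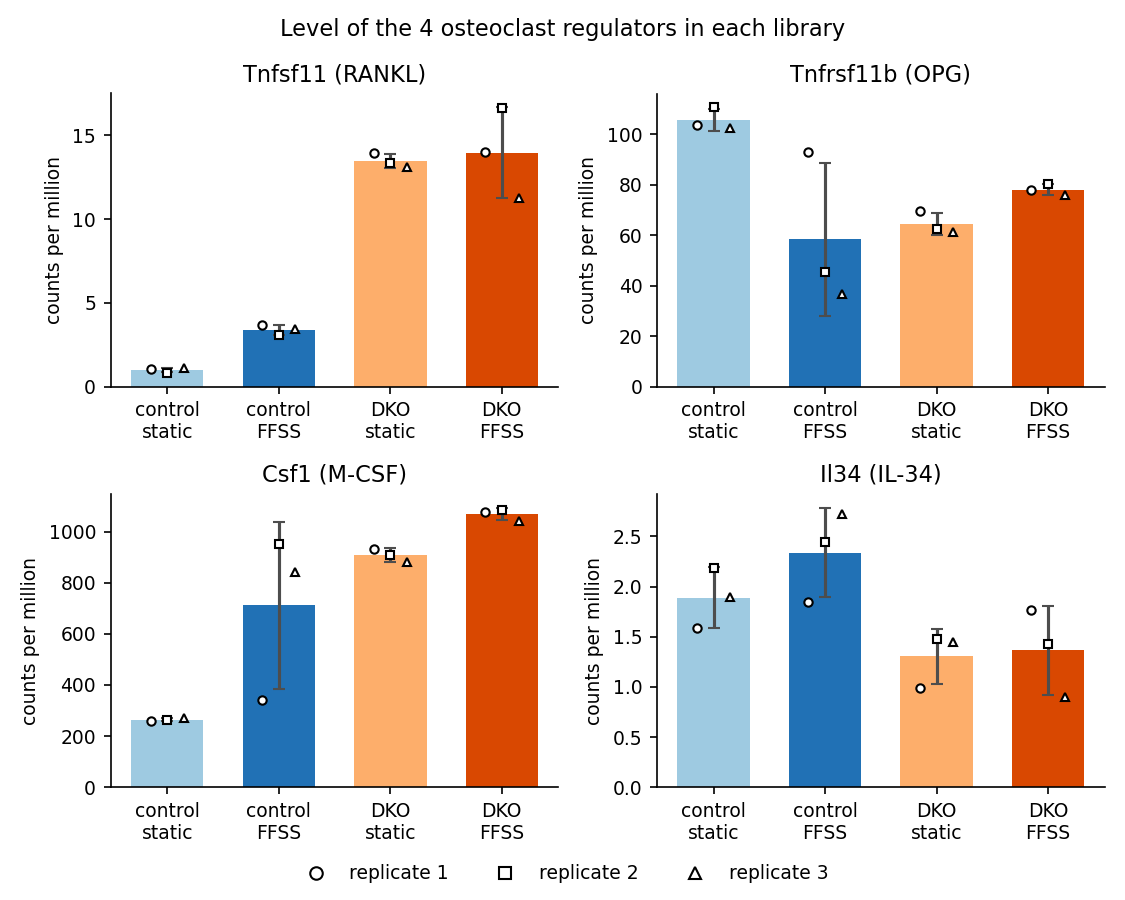
Level of each member in CPM (linear axis from 0) by group. Bars are means, error bars the SD of 3 libraries and symbols the libraries. Tnfsf11 forms 3 levels, Tnfrsf11b and Csf1 are spread widely in control FFSS cells because replicate 1 lies near the static libraries, and Il34 stays between 0.895 and 2.72 CPM.

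Tnfrsf11b, the decoy receptor (ENSMUSG00000063727, chromosome 15, 54082174 to 54110039, minus strand), was most abundant where Tnfsf11 was least. Static control replicates 1, 2 and 3 gave 1961, 2122 and 1945 reads, and FFSS control replicates gave 1811, 932 and 739. For DKO cells the read counts were 1264, 1141 and 1105 when static and 1409, 1351 and 1356 after FFSS. Every control static library was above every other library, and control FFSS replicate 1 lay close to them, whereas control FFSS replicates 2 and 3 were the lowest of all 12. Mean levels were 106 ± 4.38, 58.4 ± 30.4, 64.5 ± 4.38 and 78.0 ± 2.25 CPM (SD, n = 3 each).

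With FFSS in control cells Tnfrsf11b had a log2 fold change of −0.86 (1.81-fold lower, SE 0.28, edgeR adjusted p = 0.0394). It was past the limit on p alone, as were 35.8% of all genes, but not past the limit of a 2-fold change. The limit on p was not passed when any library other than control FFSS replicate 1 was left out (edgeR adjusted p of 0.0527 to 0.124). Nor was it passed in the fit to the 6 control libraries alone (0.127) or without a filter on low counts (0.0822). Without control FFSS replicate 1 the log2 fold change was −1.36 and Tnfrsf11b was called (edgeR adjusted p = 7.51e-15). With the share of reads outside genes as a covariate the log2 fold change was 0.04 (edgeR adjusted p = 0.838). These are the lowest and the highest p over the 22 alternatives, and that share and the FFSS response of replicates 2 and 3 cannot be told apart.

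In DKO cells all 3 FFSS libraries had more Tnfrsf11b than all 3 static libraries, by a log2 fold change of 0.27 (SE 0.28), which did not pass the test on the spread shared by all 12 libraries (edgeR adjusted p = 0.768). A fit to the 6 DKO libraries alone, whose replicates were much closer together, gave 0.28 with an edgeR adjusted p of 0.000998, a difference under 2-fold (adjusted p up to 0.902 over 22 alternatives). The lowest p, 3.53e-06 by edgeR, came with the share of reads outside genes as a covariate, where the value was 0.61. The difference between the genotypes in the response was 1.13 (edgeR adjusted p = 0.134, SE 0.39), and 1.64 and called without control FFSS replicate 1. With the share of reads outside genes as a covariate it was 0.58 and under 2-fold (edgeR adjusted p = 0.000625, within 1.86e-13 to 0.241 over 21 alternatives). Under static conditions DKO cells had less Tnfrsf11b than control cells, with a log2 fold change of −0.71 (edgeR adjusted p = 0.0552, SE 0.28), and no overlap between the groups. In the fit to those 6 libraries alone the same value had an edgeR adjusted p of 1.7e-11, still under 2-fold, and with the share of reads outside genes as a covariate it was −0.093 with the highest p of the alternatives, 0.299. Under FFSS the genotypes overlapped, through control FFSS replicate 1, and the log2 fold change was 0.42 (edgeR adjusted p = 0.232, SE 0.28). It was 0.93 without that replicate (edgeR adjusted p = 1.08e-11, the lowest over 22 alternatives) and 0.27 and 0.17 without replicates 2 and 3 (adjusted p = 0.495 and 0.568), and it was called in none of these.

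The ratio of Tnfsf11 to Tnfrsf11b was taken within each library as reads per exon base, so that it needs no scaling between libraries and allows for the exon lengths of 2236 and 2818 bases. It was 0.0129, 0.0095 and 0.0136 in control static replicates 1, 2 and 3, and 0.0501, 0.0852 and 0.118 in control FFSS replicates. In DKO libraries it was 0.253, 0.268 and 0.269 under static conditions and 0.226, 0.261 and 0.187 under FFSS. Per unit of length there were thus 73.5 to 105 Tnfrsf11b reads for each Tnfsf11 read in control static libraries, 8.50 to 19.96 in control FFSS, 3.72 to 3.95 in DKO static and 3.83 to 5.35 in DKO FFSS libraries. Tnfrsf11b outnumbered Tnfsf11 in every library.

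Counting error was largest in control static libraries, where the 95% Wilson intervals of the ratio ran from 0.00584 to 0.0209 over the 3 replicates, still below the lowest bound in control FFSS, 0.0396. In control cells the ratio was 6.71-fold higher under FFSS (log2 difference 2.75, SE 0.39, exact two-sided permutation p = 0.1, 0.133 adjusted over 4 comparisons, higher in 3 of 3 libraries). Between genotypes it was 22.2-fold higher in DKO under static conditions (4.48, SE 0.16) and 2.80-fold higher under FFSS (1.49, SE 0.39), each with an exact permutation p of 0.1. With 3 libraries against 3, 0.1 is the smallest p this test can give. In DKO cells the ratio under FFSS was lower by 0.24 on the log2 scale (SE 0.14, exact permutation p = 0.2), and the groups overlapped.

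**Figure D2:**
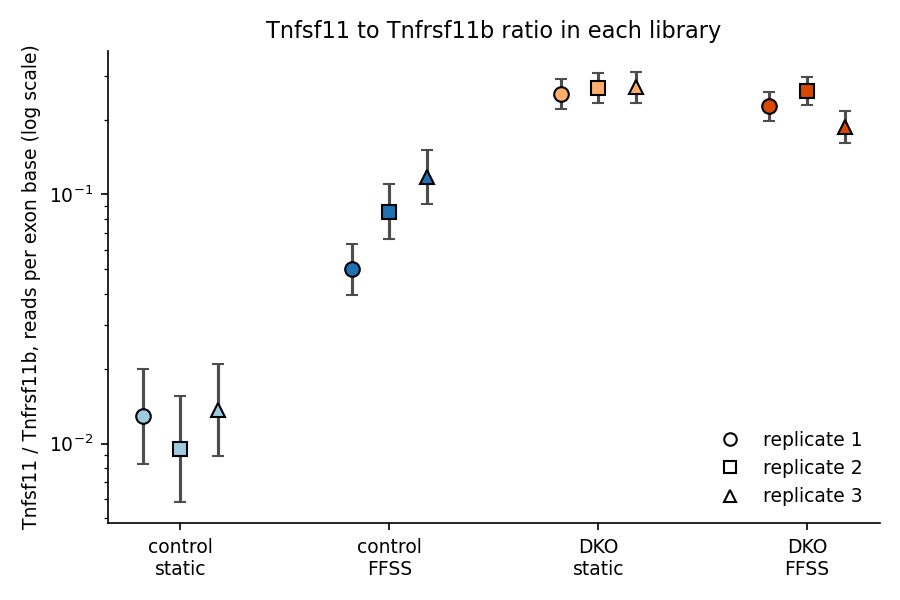
Ratio of Tnfsf11 to Tnfrsf11b, as reads per exon base (log axis), in each of the 12 libraries. Error bars are 95% Wilson intervals and cover counting error only. The control static libraries lie at 0.0095 to 0.0136, the control FFSS libraries at 0.0501 to 0.118 and the 6 DKO libraries at 0.187 to 0.269.

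The ratio in control FFSS libraries combines both genes, in unequal parts in different replicates. Measured from the mean of the 3 control static libraries, log2 CPM of Tnfsf11 was higher by 1.79, 1.53 and 1.68 in control FFSS replicates 1, 2 and 3. For Tnfrsf11b the same differences were −0.18, −1.21 and −1.52. In replicate 1 nearly all of the difference in the ratio was therefore in Tnfsf11, while in replicates 2 and 3 lower Tnfrsf11b added to it. Replicate 1 also had the lowest share of reads outside genes of the 3 libraries (5.87%). With that share as a covariate the log2 fold changes with FFSS in control cells were 1.98 for Tnfsf11 and 0.04 for Tnfrsf11b. The share and the FFSS response of replicates 2 and 3 cannot be told apart, so its part in this difference was not tested.

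Csf1, which encodes M-CSF (ENSMUSG00000014599, chromosome 3, 107543966 to 107563387, minus strand), was the most abundant of the members and was higher in every other group than in control static cells. Static control replicates 1, 2 and 3 gave 4920, 5025 and 5138 reads, and FFSS control replicates gave 6637, 19516 and 17005. For DKO cells the read counts were 16953, 16581 and 15826 when static and 19503, 18257 and 18616 after FFSS. In CPM, control FFSS replicate 1 (341) was above the control static libraries (at most 270.5), replicate 2 (953) lay within the range of the DKO libraries and replicate 3 (842) just below their lowest (879). The means were 264 ± 5.58, 712 ± 326, 907 ± 26.7 and 1069 ± 23.8 CPM (SD, n = 3 each).

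Csf1 rose 2.70-fold with FFSS in control cells (log2 fold change 1.43, edgeR adjusted p = 0.00651, SE 0.30). Relative to the control static mean, replicates 1, 2 and 3 were higher by 0.37, 1.85 and 1.67 in log2 CPM, so the size of the change rested on replicates 2 and 3. It was no longer called with the share of reads outside genes as a covariate (0.20, edgeR adjusted p = 0.567, the highest over 22 alternatives). Tnfsf11, by contrast, was called with that covariate, at 1.98 (edgeR adjusted p = 0.000148, and up to 0.00413 over its alternatives). In DKO cells all 3 FFSS libraries had more Csf1 than all 3 static libraries, by a log2 fold change of 0.24 (edgeR adjusted p = 0.820, SE 0.29), and the fit to the 6 DKO libraries alone gave 0.25 with an edgeR adjusted p of 0.000124, under 2-fold (up to 0.924 over 22 alternatives). With the covariate the direction turned, at −0.13 (edgeR adjusted p = 0.580). The response did not pass the test of a difference between genotypes (−1.19, SE 0.42, edgeR adjusted p = 0.136), but did without control FFSS replicate 1 (−1.53) and in DESeq2 (−1.18, DESeq2 adjusted p = 0.0286, with 1.92e-16 to 0.410 over 21 alternatives). The highest p, 0.410, came with the share of reads outside genes as a covariate, where the value was −0.33.

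Under static conditions Csf1 was 3.44-fold higher in DKO than in control cells (log2 fold change 1.78, edgeR adjusted p = 0.000784, SE 0.30), and it was called in all 22 alternatives, at 1.10 to 1.81. Under FFSS the log2 fold change between genotypes was 0.59 (edgeR adjusted p = 0.121, SE 0.29), with all 3 DKO libraries above all 3 control libraries in CPM. It was 0.25 without control FFSS replicate 1 (edgeR adjusted p = 6.69e-05, the lowest over 22 alternatives, of which the highest was 0.346) and 0.85 without replicate 2 (edgeR adjusted p = 0.0388), both under 2-fold.

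**Figure D3:**
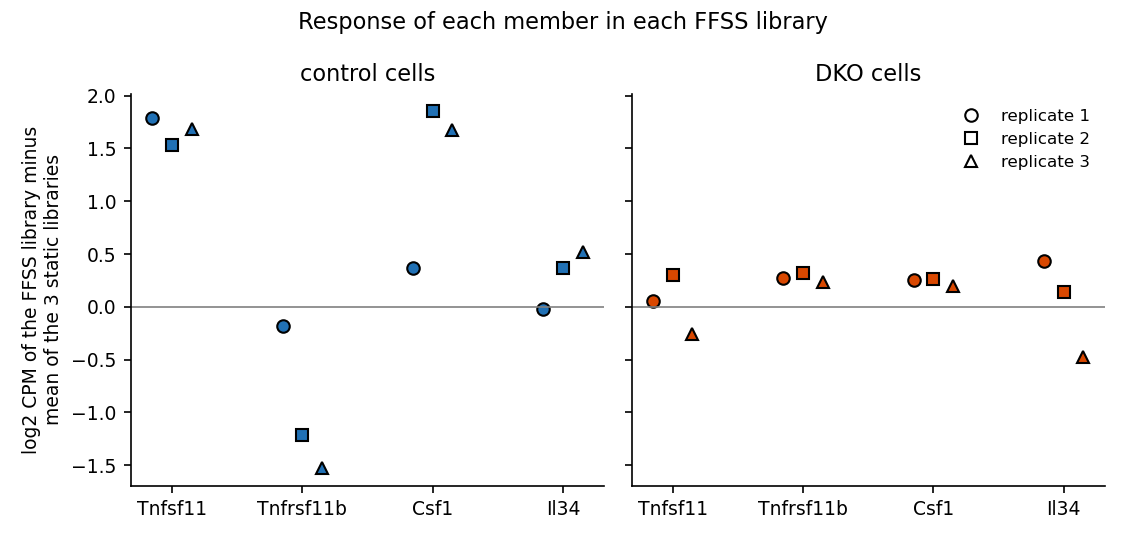
Difference in log2 CPM between each FFSS library and the mean of the 3 static libraries of its genotype, for the 4 members (left, control cells and right, DKO cells). In control cells Tnfsf11 lies at 1.53 to 1.79 in every replicate, whereas Tnfrsf11b and Csf1 are closer to 0 in replicate 1 than in replicates 2 and 3. In DKO cells every value lies between −0.48 and 0.43.

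Il34, which encodes IL-34 (ENSMUSG00000031750, chromosome 8, 113265729 to 113329824, minus strand), was at a low level throughout. Static control replicates 1, 2 and 3 gave 30, 42 and 36 reads, and FFSS control replicates gave 36, 50 and 55. For DKO cells the read counts were 18, 27 and 26 when static and 32, 24 and 16 after FFSS. Control and DKO libraries did not overlap under either condition, and static and FFSS libraries overlapped in both genotypes. Mean levels were 1.89 ± 0.301, 2.34 ± 0.446, 1.31 ± 0.274 and 1.36 ± 0.441 CPM (SD, n = 3 each). Il34 was 1.71-fold lower in DKO than in control cells under FFSS (log2 fold change −0.78, edgeR adjusted p = 0.0201, SE 0.26) and was not called because of the 2-fold limit. It was called without DKO FFSS replicate 1 (−1.01). Under static conditions the value was −0.53 (edgeR adjusted p = 0.111, SE 0.27), and with FFSS it was 0.31 in control cells (edgeR adjusted p = 0.348, SE 0.25) and 0.06 in DKO cells (edgeR adjusted p = 0.960, SE 0.29). Exons of Il34 share 75 and 22 bases with the antisense genes Gm15895 and Gm15894, which had at most 1 and 2 counts.

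Levels of different genes were compared per length, as RPKM (CPM per kilobase of exon). In control static cells the order was Csf1 at 50.2, Tnfrsf11b at 37.4, Il34 at 0.965 and Tnfsf11 at 0.447 RPKM. In DKO static cells Csf1 was at 172, Tnfrsf11b at 22.9, Tnfsf11 at 6.02 and Il34 at 0.666 RPKM. Csf1 thus exceeded Il34, which shares its receptor, in every group, and Tnfsf11 lay below Il34 in control static cells and above it in the other groups, where control FFSS cells had 1.52 and 1.19 RPKM. In bulk RNA, fewer cells that express a gene and less RNA per cell cannot be told apart.

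Of 7 receptors and partners of the members, 5 passed the filter on low counts. Tnfrsf11a, which encodes RANK, had 0 to 2 counts in every library, at or under the floor, and Tnfsf10 (TRAIL), another ligand bound by OPG, had 0 to 4. Csf1r had 5 to 24 counts and was called higher with FFSS in control cells and in DKO static cells, but 871 of its 5229 exon bases are shared with Hmgxb3 on the other strand, which had on average 1142 counts, and its few reads are uncertain. The first call was lost with the share of reads outside genes as a covariate, and the second with it and without control static replicate 2 or 3 or DKO static replicate 3. Lgr4, described as a second receptor for RANKL, had 572 to 645 counts in static control and 3468 to 4108 in static DKO libraries. It was higher in DKO by a log2 fold change of 2.70 (edgeR adjusted p = 2.2e-11, SE 0.08), and by 3.03 under FFSS. Ptprz1, a receptor for IL-34, was called lower with FFSS in control cells (−1.88) and in DKO static cells (−1.31) on 2 to 38 counts, and these calls were lost in 4 and 8 of 22 alternatives, leaving out control static replicate 2 and the covariate (−0.11 and 0.16) among both. Sdc1 (syndecan-1), which also binds IL-34, differed less than 2-fold between any groups compared. Traf6, the adaptor below RANK, had 728 to 1128 counts.

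RANKL is made as a membrane protein and shed by proteases. Of the 3 sheddases listed, 0 were called in any comparison by edgeR, DESeq2 or limma-voom (2 of 3 had an unadjusted edgeR p under 0.05 in static DKO against control cells). By edgeR the share of all genes called ran from 0.0872% (FFSS in DKO cells) to 17.2% (between genotypes under FFSS). In static DKO against control cells it was 15.3%, and 54.2% passed on adjusted p alone. Adam10 and Adam17 were higher in DKO static cells by 0.87 and 0.75 on the log2 scale (SE 0.11 and 0.07, edgeR adjusted p = 1.97e-05 and 1.13e-06), both under 2-fold, and Mmp14 was at −0.18. Exons of Adam17 share 97 bases with Iah1 on the other strand.

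Of 22 gene IDs for receptors and factors known to act on Tnfsf11 transcription, 20 were tested. With FFSS in control cells 1 was called higher and 2 lower, with a median log2 fold change of −0.19 against 0.0073 over all genes, of which 3.96% were called higher and 1.97% lower. Osmr, the oncostatin M receptor subunit, rose by 1.13 (edgeR adjusted p = 3.13e-05, SE 0.12), a call lost with the share of reads outside genes as a covariate (0.65). Lower were Mef2c, a transcription factor that class IIa deacetylases repress, at −1.45 and the PTH receptor Pth1r at −1.32, with edgeR adjusted p of 0.017 and 0.0343. Counts of Pth1r were 8463, 2387 and 3272 in control FFSS replicates 1, 2 and 3 against 10648 to 12011 in control static libraries, so these values again came from replicates 2 and 3. Mef2c was not called without control FFSS replicate 3, and Pth1r not without replicate 2 or 3 or any 1 of the control static libraries. Both calls were also lost in the fit to the 6 libraries alone and with the covariate (−0.39 and −0.24). In DKO cells 0 of the 20 were called by edgeR, DESeq2 or limma-voom (6 at an unadjusted edgeR p under 0.05). Of all genes 0.0872% were called there by edgeR and 0.872% passed on adjusted p alone. Osmr had 0.82 in DKO cells (edgeR adjusted p = 0.00734, SE 0.12).

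Under static conditions 2 of these 20 genes were called higher in DKO and 1 lower (median 0.34 against 0.010 over all genes), near the shares of all genes called, 7.98% higher and 7.3% lower. Vdr, the vitamin D receptor, was higher by 2.46 (edgeR adjusted p = 1.71e-09, SE 0.11), with 1326 to 1409 counts in control and 6861 to 7693 in DKO static libraries. Mef2d was higher by 1.37 and Il6ra lower, at −1.04, the latter not without control static replicate 1 or 2 or DKO static replicate 1. Under FFSS 6 were called higher and 0 lower (median 0.70 against −0.051 over all genes, of which 8.25% were called higher and 8.96% lower), with Vdr at 2.46 and Mef2c at 1.76 the highest. Mef2c did not pass the test between genotypes under static conditions (0.57, edgeR adjusted p = 0.226).

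For Tnfrsf11b, 11 genes of Wnt, Notch, estrogen and TGF-beta signalling and the factor Ebf2 were listed, of which 10 were tested. With FFSS 0 were called by edgeR, DESeq2 or limma-voom in either genotype, against 5.93% of all genes in control and 0.0872% in DKO cells by edgeR. At an unadjusted edgeR p under 0.05 there were 8 in control cells, 4 higher and 4 lower after adjustment too, and 3 in DKO cells. Of all genes 35.8% in control and 0.872% in DKO cells passed on adjusted p alone. Under static conditions 2 were called higher in DKO, Tcf7l2 at 1.83 and the Wnt co-receptor Lrp5 at 1.23, and 2 lower, the Notch ligand Jag1 at −1.85 and Tcf7 at −1.77 (median 0.18 against 0.010 over all genes, of which 7.98% were called higher and 7.3% lower). Jag1 had 853 to 970 counts in control and 236 to 245 in DKO static libraries.

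Beyond the 4 members, 24 other secreted factors that promote or recruit osteoclasts or their precursors were listed, and 19 were tested. With FFSS in control cells 5 were called higher and 0 lower (median 0.35 against 0.0073 over all genes, of which 3.96% were called higher). The highest were the monocyte chemoattractants Ccl2, at 1.98 (edgeR adjusted p = 0.00335, SE 0.36), and Ccl7, at 1.95 (edgeR adjusted p = 0.00477, SE 0.40). Ccl2 had 342 to 380 counts in control static libraries and 642, 2260 and 1605 in control FFSS replicates 1, 2 and 3. The others, named because they are few, were Il11 at 1.63, Angptl4 at 1.11 and Tslp at 1.07. Angptl4 was even across replicates, with 171, 174 and 193 counts under FFSS against 74 to 88 in static libraries, and its response differed between genotypes (−0.90, SE 0.22, edgeR adjusted p = 0.0372). Tslp was called in 8 of 22 alternatives, and was lost when any library but control FFSS replicate 1 or DKO static replicate 3 was left out. With the share of reads outside genes as a covariate Angptl4 alone of the 5 was called. In DKO cells 0 of the 19 were called with FFSS by edgeR, DESeq2 or limma-voom (6 at an unadjusted edgeR p under 0.05). The median was 0.31 against −0.0094 over all genes, of which 0.0872% were called by edgeR.

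Between genotypes the promoting factors went both ways. Under static conditions 4 were called higher in DKO and 3 lower (median −0.064 against 0.010 over all genes, of which 7.98% were called higher and 7.3% lower). Sost, a Wnt antagonist that also raises RANKL in osteocytes, was higher by 8.59 and osteopontin (Spp1), a ligand for osteoclast integrins, by 2.31. Vegfc at −1.96 and Lif at −1.60 were the lowest. Under FFSS 4 were called higher and 7 lower (median −0.65 against −0.051 over all genes, of which 8.25% were called higher and 8.96% lower), the lowest being Tslp at −2.56 and Il6, which had 11 to 17 counts in control and 3 in each DKO FFSS library, too few for a fold change.

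Of 22 factors that restrain osteoclasts, 17 were tested. With FFSS 1 was called lower in control cells, where 1.97% of all genes were, namely Slit3 at −1.09. Slit3 was called in 7 of 22 alternatives and was lost when any library but control FFSS replicate 1 was left out and with the covariate (−0.069). In DKO cells 0 were called by edgeR, DESeq2 or limma-voom (3 at an unadjusted edgeR p under 0.05), against 0.0872% of all genes by edgeR. Under static conditions 6 were called higher in DKO and 5 lower (median 0.59 against 0.010 over all genes, of which 7.98% were called higher and 7.3% lower). Frzb, a secreted Wnt antagonist, was higher by 6.56 (SE 0.22), with 5 to 21 counts in control and 1018 to 1180 in DKO static libraries. Il12a was called higher on 7 to 13 against 0 to 4 counts, too few for a fold change. Sema3a, an osteocyte-derived inhibitor of osteoclast formation, was lower at −2.94 (edgeR adjusted p = 2.01e-08, SE 0.16), with 1368 to 1492 counts in control and 173 to 184 in DKO static libraries, and Nov at −2.84. The same direction of Frzb, Sema3a and Nov was called under FFSS (6.76, −3.35 and −2.84), in comparisons of other libraries of the same lines.

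**Figure D4:**
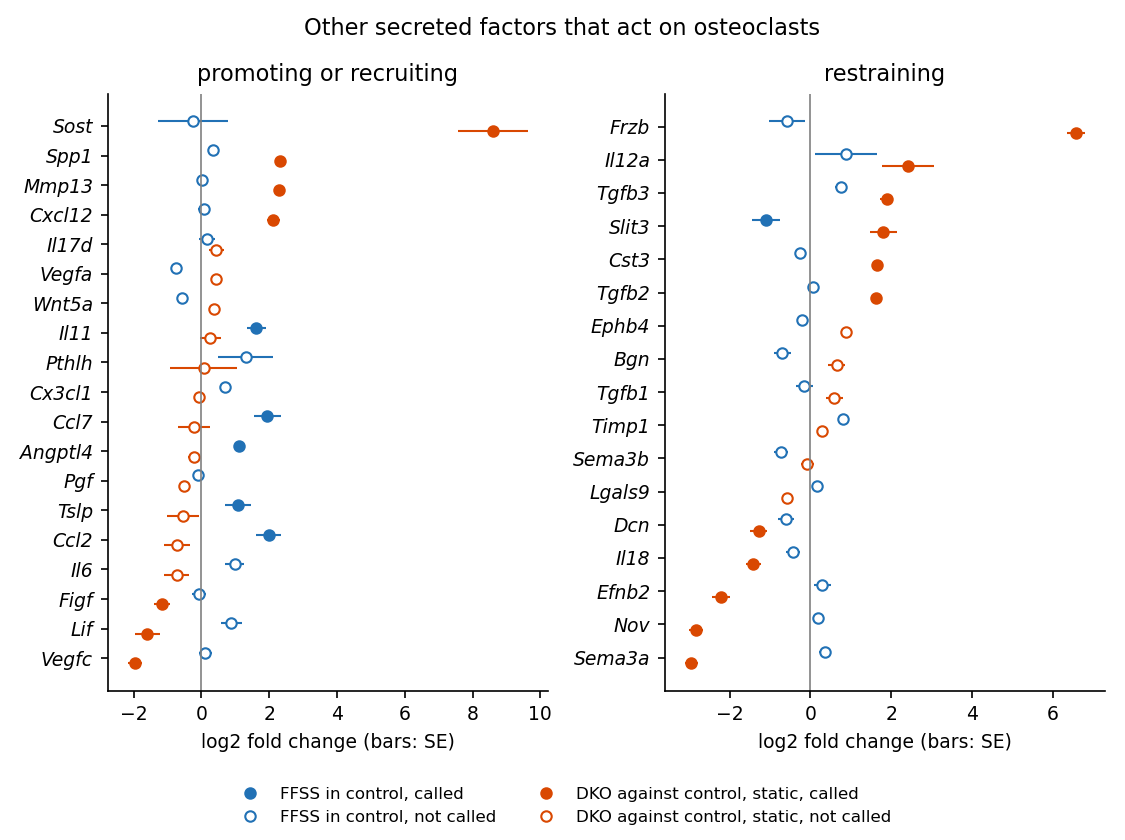
Log2 fold changes of the tested secreted factors other than the members, with FFSS in control cells (blue) and between DKO and control static cells (orange). Bars are standard errors and filled points were called. In control cells 5 promoting factors are filled on the right and 1 restraining factor on the left, whereas between genotypes filled points lie on both sides in both panels.

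Within the TNF family, Tnfsf11 was 1 of 5 ligands tested of 17 matched. With FFSS in control cells, where 3.96% of all genes were called higher and 1.97% lower, 3 of the 5 were called higher, Tnfsf15 at 2.45, Tnfsf11 at 1.76 and Tnfsf18 (GITR ligand) at 1.74, and Tnfsf9 (4-1BB ligand) was called lower at −1.55 on 2 to 19 counts, though not without control static replicate 1 or control FFSS replicate 3. Tnfsf15 had 10 to 23 counts in static control libraries and 17, 142 and 138 in control FFSS replicates 1, 2 and 3, and was called in 14 of 22 alternatives, not without replicate 2 or 3 of either group, in the fit to the 6 libraries alone, without a filter on low counts or in limma-voom. The call of Tnfsf9 was lost in the fit to the 6 libraries too. With the share of reads outside genes as a covariate Tnfsf11 alone of these 4 was called, and the value was −0.25 for Tnfsf15, 0.89 for Tnfsf18 and −1.25 for Tnfsf9. Tnfsf18 had 8 to 27 counts in control static, 37 to 77 in control FFSS and 0 to 3 in all DKO libraries, so that it went opposite to Tnfsf11 between genotypes (called lower in DKO static cells, edgeR adjusted p = 0.00238, with too few reads there for a fold change). Of 25 TNF receptor genes, Tnfrsf11b among them, 18 were tested. With FFSS 2 were called higher in control cells, Tnfrsf25 at 1.26 and Tnfrsf4 at 1.12, both not without control FFSS replicate 3 and Tnfrsf4 also not without control FFSS replicate 2 or control static replicate 1 or 3. With the covariate they were at 0.091 and 0.37 and not called, and Tnfrsf25 was not called in the fit to the 6 libraries alone. Between genotypes under static conditions, where 7.98% of all genes were called higher and 7.3% lower, Fas alone was called higher (1.02, not without control static or DKO static replicate 3, with the covariate or with library totals alone), and 4 were called lower, with Tnfrsf19 at −4.36 and the p75 neurotrophin receptor Ngfr at −3.36 the lowest.

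Markers of other cell types were examined beside these results. Of 10 osteoclast markers, Acp5, Calcr, Atp6v0d2 and Tm7sf4 (DC-STAMP) had 0 to 3 counts in every library. The summed level of the list was 139 to 143 CPM in control static and 322 to 328 in DKO static libraries. Of its 5 members tested, Itgb3 (the integrin beta 3 chain) was called higher in DKO static cells at 4.58, as was Csf1r, and Mmp9 was called lower at −2.01. Of all genes 7.98% were called higher in that comparison and 7.3% lower. Ctsk (cathepsin K) had 992 to 1498 counts in static libraries. Of 9 macrophage and blood cell markers Ptprc, Emr1, Tyrobp and Itgam had 0 to 4 counts. The summed level of the macrophage list was 30.4 to 34.8 CPM in control static libraries, where Cd68 made up most of it, and 14.1 to 14.4 in DKO static libraries. Only Cd68 was called lower in DKO static cells (−3.46), and Lyz2 (1.83, on 8 to 41 counts) and Csf1r were called higher. The median over the 5 tested was 0.96 against 0.010 over all genes, of which 7.98% were called higher and 7.3% lower. The summed osteoblast and osteocyte markers were at 19943 to 24022 CPM in control static, 6913 to 20342 in control FFSS and 62472 to 69805 in DKO static libraries. Col1a1 made up most of this sum, with means of 17133, 8558 and 50464 CPM in these groups. Of the 13 tested, 7 were called higher in DKO static cells, 1 lower and 5 neither. The lower 1 was Pdpn, at −2.56 to −2.45 over 22 alternatives. The 7 cartilage markers summed to 94.4 to 122 CPM in control static and 2391 to 2984 in DKO static libraries, where Col2a1 had 29518 to 37616 counts against 18 to 173. Of these 7, 4 were called higher in DKO static cells and 3 were not called. Acan, not called, had means of 5.96 CPM in control static and 4.97 in DKO static cells. The differences in Tnfsf11, Csf1 and Tnfrsf11b between static DKO and control cells lay beside these differences in the lists. The macrophage sum was lower in DKO static cells and the other sums given were higher. Under FFSS the cartilage sum was 54.2 to 96.6 CPM in control and 2035 to 2513 in DKO libraries. Tnfrsf11b had a log2 fold change between genotypes of −0.71 under static conditions and 0.42 under FFSS. The part of the lists in the differences of the 3 genes was not tested. The osteoblast and osteocyte sum also reached lower in control FFSS than in control static libraries, with overlap, beside the changes of Tnfsf11, Csf1 and Tnfrsf11b there. Its part in those changes was not tested either.

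Genes with the profile most like that of a member were sought among 11413 tested genes with an average log2 CPM above 1, by the root mean square difference of their log2 CPM over the 12 libraries after centring on each gene's mean. For Tnfsf11 they were Vcan (0.34), Ltbp2 (0.40), Zfp13 (0.42), Elovl6 (0.48) and Fam176b (0.48). Vcan, the matrix proteoglycan versican, had 2.66, 4.98, 25.5 and 23.4 CPM in control static, control FFSS, DKO static and DKO FFSS cells, and Ltbp2, another matrix protein, 6.23, 17.9, 52.9 and 62.8. For Tnfrsf11b they were C3 (0.15), Reck (0.18), Cdk5r1 (0.19), Sema4d (0.19) and Kctd15 (0.20). Complement C3 had 6.35, 3.48, 3.80 and 4.50 CPM in the same groups, and Reck, a membrane-bound inhibitor of metalloproteinases, 38.5, 20.8, 28.4 and 26.8. These likenesses are descriptions over libraries that share groups, and carry no test.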

How the data were processed

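RNA was sequenced from 12 libraries, 3 in each of 4 groups taken from the sample titles. Per the labels and the study's methods, the authors aligned reads to mm9 with STAR and counted them per Ensembl gene with HTSeq, without strand. The deposited values are raw counts, neither normalised nor filtered, and 5 HTSeq summary lines per file were left out of totals and tests. HTSeq drops reads that overlap several genes or align to several places, so genes with overlapping exons lose reads. Symbols, coordinates (1-based) and exon lengths came from an mm9 annotation.

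Genes with 0 counts in 2 or more libraries were removed, following the study's methods, leaving 14904 of 24360 genes with any count. All 12 libraries were fitted as 4 groups with edgeR 4.0.16 in R 4.3.3 (TMM, robust quasi-likelihood), with Benjamini-Hochberg adjustment over all genes tested. Calls needed both an adjusted p under 0.05 and over a 2-fold change. Standard errors were derived from each F statistic, and log2 CPM used a prior count of 2. Because control FFSS libraries vary more than the others, the shared spread makes tests within DKO cells conservative. It can make tests that use control FFSS libraries too lenient. The fit to the 6 control libraries alone, which also has fewer libraries, called 453 genes with FFSS rather than 884. Its edgeR adjusted p was 0.00413 for Tnfsf11, 0.0459 for Csf1 and 0.127 for Tnfrsf11b, against 4.83e-05, 0.00651 and 0.0394. The ratio was tested by exact two-sided permutation over all 20 splits of 3 against 3 libraries. Intervals and the floor of 3 counts cover counting error only, since reads without molecular identifiers are not independent molecules. The edgeR step was tested on simulated data.

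The members and lists were chosen with earlier results of these data known. Genes named are the 4 members, their receptors, at most the 2 highest and 2 lowest called genes per list and comparison, and the 5 genes with the profile most like Tnfsf11 or Tnfrsf11b. Other genes named were chosen after their values were seen. Alternatives were RLE factors, library totals alone, filterByExpr or no filter, the 6 libraries compared alone, DESeq2 1.42.0, limma-voom (limma 3.58.1), the replicate number as a block, each library left out, no fold limit and the share of reads outside genes as a covariate, and for the ratio a pseudocount of 0.5.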

Additional observations from a re-analysis of the deposited data

Results flagged for a closer look

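The response to FFSS differed between control and DKO cells for 6 of the 126 listed genes tested (4.76%), by an edgeR adjusted p under 0.05 of the interaction, against 3.97% of all genes. The share is near that of all genes and is no result about the lists. For Tnfsf11 the log2 effect in DKO minus that in control cells was −1.71 (edgeR adjusted p = 0.00236), since all 3 control FFSS libraries were higher than the static mean and the DKO libraries lay on both sides of it.

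The other 5 were past the limit on p but under 2-fold. The difference was −0.90 for Angptl4, −0.60 for Il1r1, the interleukin-1 receptor, −0.48 for Timp1, an inhibitor of metalloproteinases, −0.40 for Sdc1 and 0.57 for Cebpb, a transcription factor, with edgeR adjusted p between 0.0102 and 0.0372. Exons of Cebpb overlap Tmem189 on the other strand, which had 39.3% as many counts.

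The log2 ratio of Tnfsf11 to Tnfrsf11b was higher than the static mean in 3 of 3 control FFSS libraries (by 2.08, 2.85 and 3.31) and lower in 3 of 3 DKO FFSS libraries (−0.22, −0.013 and −0.50). The difference of the effects was −2.99 (SE 0.42), and it was not tested. Individual DKO libraries of the static and FFSS groups overlapped (exact permutation p = 0.2). With 3 libraries against 3 this test gives no p under 0.1, so it could not pass in either genotype.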

How the results depend on the processing

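Over the 20 combinations of member and comparison, 428 of 436 alternative values stayed on their side of the threshold, and 0 called values reversed. This tally takes a value that stayed uncalled as unchanged, whatever its size or direction. With the share of reads outside genes as a covariate, Tnfrsf11b with FFSS in control cells went from −0.86 to 0.04. Csf1 with FFSS in DKO cells went from 0.24 to −0.13, and both were taken as unchanged. All 51 alternative values of the ratio kept their sign, in a design too small for its test to pass. Csf1 with FFSS in control cells was lost with the share of reads outside genes as a covariate (0.20). Without the fold limit Tnfrsf11b with FFSS in control cells (−0.86) and Il34 between genotypes under FFSS (−0.78) were called, and in DESeq2 the Csf1 interaction was (−1.18). Leaving out 1 library at a time gave ranges of −1.36 to −0.61 for Tnfrsf11b with FFSS in control cells, 0.88 to 1.64 for its interaction, −1.53 to −0.93 for the Csf1 interaction, and −1.01 to −0.55 for Il34 between genotypes under FFSS. The cause of these changes was not tested, beyond the fewer libraries or the dropped limit itself.

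The count of genes called with FFSS in control cells was 884, and 453 in the 6 libraries alone, 198 with the covariate, 5338 without a fold limit and 497 to 1683 without 1 library, the highest without control FFSS replicate 1. In DKO cells it was 13, and 42, 50, 130 and 8 to 38 in the same order. For the interaction it was 97, 175 in DESeq2, 591 without a fold limit and 41 to 1133 without 1 library, again highest without control FFSS replicate 1. Between genotypes it was 2278 under static conditions and 2565 under FFSS, and 8084 and 8438 without a fold limit.

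The counts gave no sign that the replicate numbers pair the samples. Deviations from the group means correlated by 0.00226 on average for same-numbered libraries (18 pairs) and −0.00116 for the others (36 pairs). Nothing in the labels tells whether same-numbered libraries were handled together. Blocking on the number gave 882, 14, 84, 2271 and 2545 called genes in the order above, and Tnfsf11 had 1.76 with FFSS in control cells. Depth limits the precision of Tnfsf11 in control static libraries (16 to 21 counts) and of Il34 in all libraries (16 to 55 counts).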
